A study of Mus musculus with 8 samples.

Results

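The genes described here are 42 genes of mitosis and cytokinesis, taken by gene symbol from the expression tables of all 8 libraries. They are 42 of the 17364 genes in the tables, and all 42 were found and tested. They were grouped into 7 roles: 7 kinases and cyclins of mitotic entry, 4 genes of the spindle checkpoint and anaphase-promoting complex, 6 of the centromere and kinetochore, 4 of the chromosomal passenger complex, 7 spindle motors and microtubule-binding proteins, 6 genes of chromosome condensation, and 8 of the central spindle and cytokinesis. Each library holds poly(A)-enriched RNA of bone-marrow-derived macrophages, that is, marrow cells of the mouse matured into macrophages in culture. A group of 4 libraries came from mice with the Sept2C111A allele and another of 4 from wild-type (WT) mice, and both groups were exposed to 30 ng/ml of TNF-α over 24 h, so that no untreated cells enter the comparison. By its name the allele replaces a cysteine of septin 2, a GTP-binding protein of the septin cytoskeleton, with alanine, and the series title concerns its S-nitrosylated form in macrophage inflammation and migration. Ages, strain background and whether the libraries of a group came from separate mice or cultures are not given in the labels, so the p-values speak for the spread between these libraries alone, and that spread may be technical.

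Mitosis starts when cyclin B and the kinase CDK1 become active. Chromosomes then condense, kinetochores attach them to the spindle, and a checkpoint holds back the anaphase-promoting complex until attachment is complete. Cytokinesis follows: motors and bundling proteins build the central spindle, and a ring of actin, myosin and septins cleaves the cell. Most genes of this program are transcribed in G2 and M by the MuvB complex with MYBL2 and FOXM1. Macrophages grown from marrow divide while they mature and largely leave the cycle when they are activated. Transcripts of this program are in general typical of dividing cells, but which cells held them here was not measured. In bulk RNA, fewer dividing cells and less of each transcript per cell cannot be told apart.

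Library totals lay between 19543973 and 21288521 expected counts, and 3 reads, the limit that a count of 0 allows, corresponded to 0.140 to 0.159 CPM (a gene's counts scaled to a common normalized library size; the limit covers counting error only). The first principal component of all tested genes held 45.1% of the variance. Sept2C111A libraries 2 and 3 lay at one end of it, at -28.2 and -36.6, libraries 1 and 4 at -0.87 and 1.97, and the WT libraries at 11.2 to 19.4. Sept2 itself (Septin2 in the tables) averaged 188 ± 18.7 CPM in Sept2C111A cells and 226 ± 7.43 CPM in WT cells (SD, n = 4 each), a difference that missed the threshold (log2 fold change -0.27, adjusted p = 0.0627), and these counts do not read the substituted codon. The 8 macrophage markers summed to 20788 to 22585 CPM in Sept2C111A libraries and 23007 to 24801 CPM in WT libraries. These sums did not overlap, and none of the 8 was called.

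Of the 42 genes, 4 were lower in Sept2C111A macrophages at an adjusted p under 0.05 (edgeR quasi-likelihood F test, Benjamini-Hochberg over 12462 tested genes), and none was higher. They were Mki67, Prc1, Ube2c and Cenpf. Across all tested genes, 3.03% were called lower and 3.43% higher, against 9.52% of the 42 lower. Most of the 42 are rare transcripts: of the 38 with a mean of at most 10 CPM, 3 were called lower, where 2.14% of the 4154 tested genes at that level were. Of the 42 genes, 39 had a negative log2 fold change, against 48.2% of all tested genes, and the median was -0.42, a fold of 0.747, against 0.01 over all genes. At an unadjusted p under 0.05, 25 of the 42 were lower and none higher, where 12.5% of all genes were lower. In 12 genes every Sept2C111A library lay below every WT library, which held for 8.47% of all genes. Kif14 and Aspm are among both counts, although they met the filter on low counts in all 4 libraries of WT alone and so entered the test through the group in which they are higher. Over the 40 genes at the filter level in all 8 libraries, 23 were lower at an unadjusted p under 0.05, 10 did not overlap, 37 had a negative log2 fold change, and the median was -0.41. The 42 genes were chosen with earlier results of these data known, so these shares describe the set and do not test it. The count of calls rested on the libraries entered: without Sept2C111A library 2 or 3, without both together or without any 1 WT library only Mki67 was called, while 13 genes were called without Sept2C111A library 1 and 6 without library 4. The share of all tested genes called lower moved too. It was 3.99%, 1.19%, 2.45% and 7.81% without Sept2C111A library 1, 2, 3 or 4. Without libraries 2 and 3 together it was 1.65%, and without 1 WT library 0.827% to 1.75%. Without libraries 2 and 3 together, 39 of the 42 genes still had a negative log2 fold change, and the median of the 42 was -0.24. The plot of fold changes shows each gene with its interval.

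**Figure D1:**
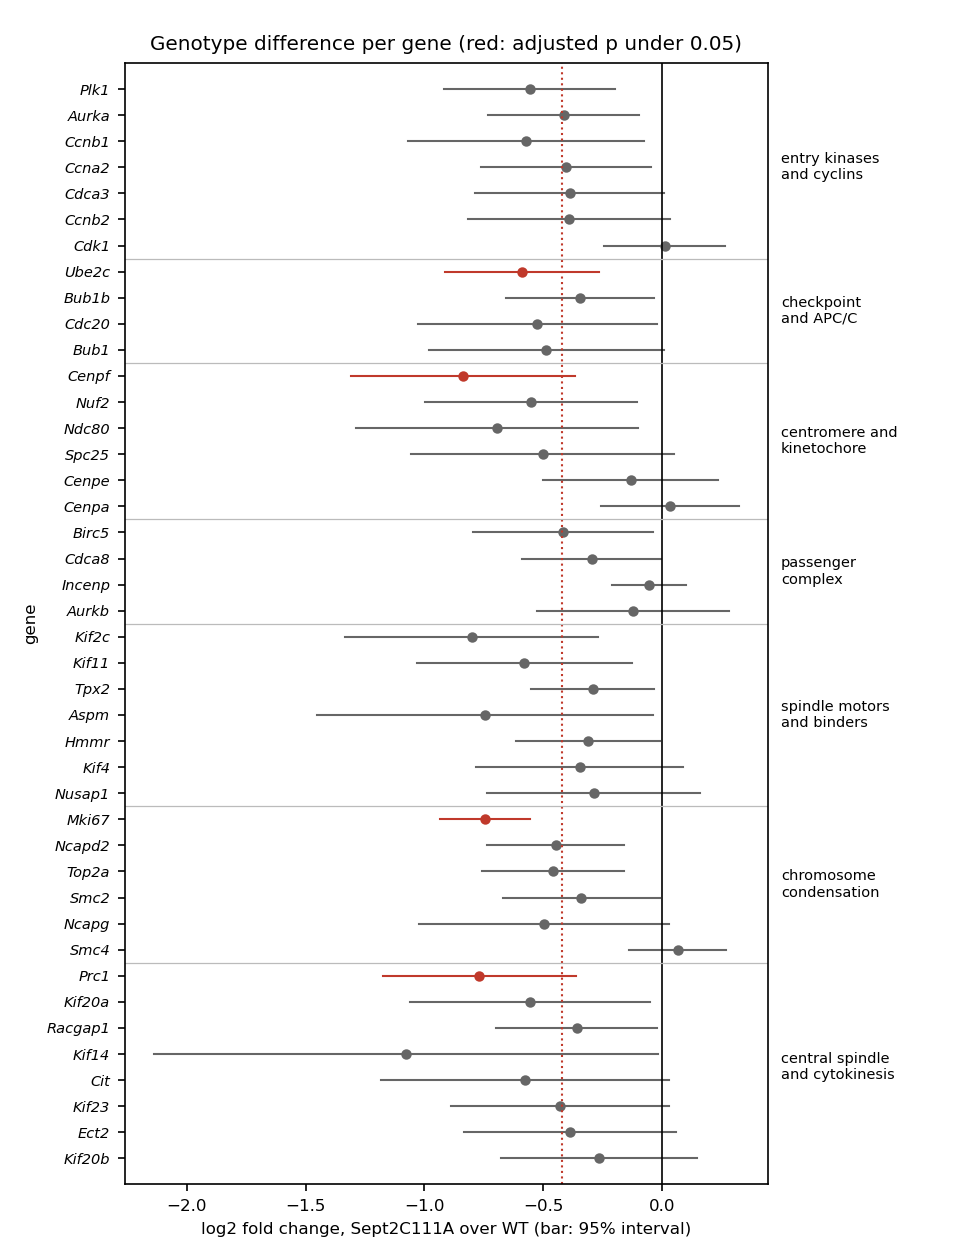
Log2 fold change of each of the 42 genes, Sept2C111A over WT, on the x axis, with genes down the page in their 7 roles. Points are edgeR estimates, bars 95% intervals, red marks an adjusted p under 0.05, and the dotted line is the median of the 42, -0.42. All but 3 points lie left of 0, the 4 red ones among them.

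Mki67 had the smallest adjusted p of the set. It encodes the Ki67 antigen, a coat protein of mitotic chromosomes that is used in histology as a mark of dividing cells. Its level was 33.3, 28.0, 24.6 and 29.6 CPM in Sept2C111A libraries 1 to 4, against 48.3, 49.8, 46.4 and 49.1 CPM in WT libraries 1 to 4. The groups did not overlap, and the highest Sept2C111A library lay well below the lowest WT library. Mki67 fell by 40.3% (28.9 ± 3.64 CPM in Sept2C111A cells and 48.4 ± 1.46 CPM in WT cells, SD, n = 4 each). The log2 fold change was -0.74 (SE 0.087, 95% interval -0.94 to -0.55, edgeR adjusted p = 8.76e-04). The call held under all 16 alternatives, with adjusted p between 2.79e-12 and 0.00557.

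Prc1 encodes the protein that bundles antiparallel microtubules into the central spindle. Its level was 4.35, 2.60, 2.54 and 4.40 CPM in Sept2C111A libraries and 5.72, 5.83, 6.22 and 6.01 CPM in WT libraries. Sept2C111A libraries 2 and 3 stood at about the same low level and libraries 1 and 4 between them and WT. Prc1 averaged 3.47 ± 1.04 CPM in Sept2C111A cells and 5.95 ± 0.220 CPM in WT cells (SD, n = 4 each; log2 fold change -0.77, SE 0.185, edgeR adjusted p = 0.0339). The call was lost without Sept2C111A library 2 or 3 or any 1 WT library (adjusted p 0.0532 to 0.110) and without Sept2C111A libraries 2 and 3 together (adjusted p = 0.0849). Exons of Rccd1, on the opposite strand, overlap 11.1% of the exon bases of Prc1, and without a stated strand the reads of both cannot be told apart there. Rccd1 averaged 4.71 CPM in Sept2C111A cells and 3.89 CPM in WT cells.

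Ube2c encodes the ubiquitin-conjugating enzyme that works with the anaphase-promoting complex on cyclin B and securin. It had 6.01, 3.76, 4.78 and 4.02 CPM in Sept2C111A libraries, against 7.54, 6.58, 7.22 and 6.68 CPM in WT libraries. The groups did not overlap, with Sept2C111A library 1 nearest to WT. Ube2c fell to 4.64 ± 1.01 CPM in Sept2C111A cells, against 7.0 ± 0.453 CPM in WT cells (SD, n = 4 each; log2 fold change -0.59, SE 0.147, edgeR adjusted p = 0.0390). Leaving out Sept2C111A library 2 or 3, or any 1 WT library, ended the call (adjusted p 0.0564 to 0.122), as did leaving out Sept2C111A libraries 2 and 3 together (adjusted p = 0.145). The opposite-strand gene Tnnc2, which shares 22.8% of the exon bases of Ube2c, averaged 0.0309 CPM.

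Cenpf, a large protein of the nuclear matrix and the outer kinetochore, was the rarest of the called transcripts. It had 1.70, 1.11, 1.07 and 0.993 CPM in Sept2C111A libraries, against 2.10, 1.87, 2.17 and 2.62 CPM in WT libraries. Sept2C111A library 1 stood close to the lowest WT library and the other Sept2C111A libraries well below both. The reads behind these values were 36, 21, 21 and 21 in Sept2C111A libraries and 44, 40, 46 and 55 in WT libraries. Cenpf averaged 1.22 ± 0.326 CPM in Sept2C111A cells and 2.19 ± 0.318 CPM in WT cells (SD, n = 4 each; log2 fold change -0.84, SE 0.215, edgeR adjusted p = 0.0429). This call too was lost without Sept2C111A library 2 or 3 or any 1 WT library (adjusted p 0.0638 to 0.122), without Sept2C111A libraries 2 and 3 together (adjusted p = 0.191), and under limma voom with sample weights (adjusted p = 0.0546).

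**Figure D2:**
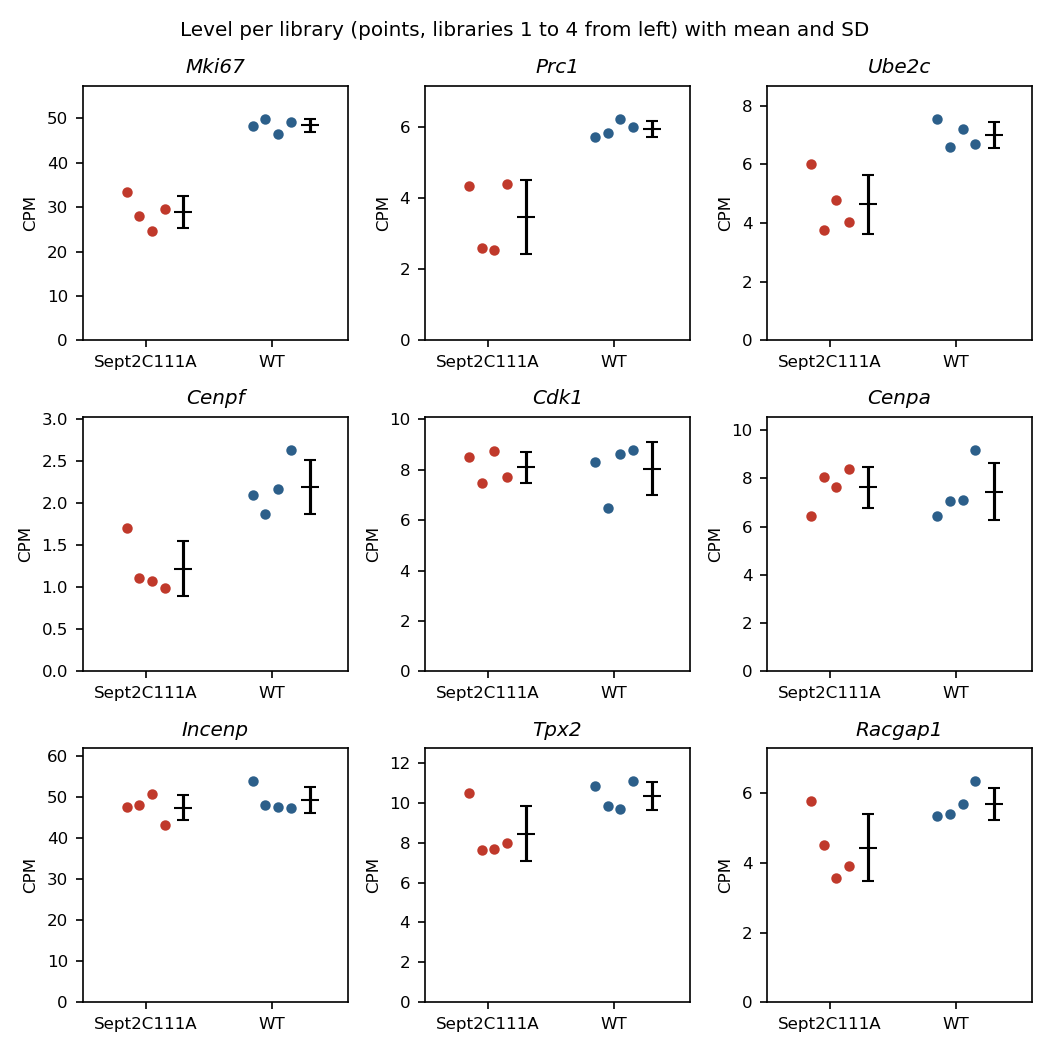
Level in CPM of the 4 called genes and of the most abundant gene of each role, by library, with Sept2C111A (red) left of WT (blue) in each panel. Points are libraries 1 to 4 from the left, and the black mark and bar are the mean and SD of 4 libraries. Mki67, Prc1, Ube2c and Cenpf separate by genotype, while Cdk1, Cenpa, Incenp, Tpx2 and Racgap1 overlap.

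Promoters of the 4 called genes are printed because each holds 2 short words known from mitotic genes. The first is TTTGAA, or TTCAAA on the other strand, the core of the cell cycle genes homology region (CHR), to which MuvB binds. The second is CCAAT, or ATTGG on the other strand, the box bound by the factor NF-Y. Each sequence runs 5′ to 3′ on the gene's strand, with capitals on both words, from 200 bases before the annotated start to 30 after it (RefSeq, GRCm38.p6, which is the mm10 build). Prc1 has a second annotated start 25 bases downstream, which is not shown. Cdk1 and Cenpa follow for contrast, since they carry the same words and had fold changes near 0. Mki67 is read from chr7:135716350-135716579 on the minus strand, Prc1 from chr7:80294251-80294480 on the plus strand, Ube2c from chr2:164769729-164769958 on the plus strand, Cenpf from chr1:189688057-189688286 on the minus strand, Cdk1 from chr10:69352883-69353112 on the minus strand and Cenpa from chr5:30666686-30666915 on the plus strand.
Mki67: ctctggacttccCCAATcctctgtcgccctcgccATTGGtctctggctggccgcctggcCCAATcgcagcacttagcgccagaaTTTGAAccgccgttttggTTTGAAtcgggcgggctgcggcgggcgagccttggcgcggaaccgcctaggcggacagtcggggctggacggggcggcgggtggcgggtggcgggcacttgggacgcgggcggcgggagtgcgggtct
Prc1: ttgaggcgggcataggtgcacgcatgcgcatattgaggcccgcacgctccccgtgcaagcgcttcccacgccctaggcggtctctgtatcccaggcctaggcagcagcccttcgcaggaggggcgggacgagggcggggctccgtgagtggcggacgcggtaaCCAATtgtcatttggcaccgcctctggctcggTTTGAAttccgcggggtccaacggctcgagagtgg
Ube2c: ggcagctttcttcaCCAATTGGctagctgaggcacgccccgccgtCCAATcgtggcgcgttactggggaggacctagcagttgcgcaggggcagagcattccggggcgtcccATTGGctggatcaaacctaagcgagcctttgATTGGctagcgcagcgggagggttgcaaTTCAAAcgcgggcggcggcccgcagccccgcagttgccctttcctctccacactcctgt
Cenpf: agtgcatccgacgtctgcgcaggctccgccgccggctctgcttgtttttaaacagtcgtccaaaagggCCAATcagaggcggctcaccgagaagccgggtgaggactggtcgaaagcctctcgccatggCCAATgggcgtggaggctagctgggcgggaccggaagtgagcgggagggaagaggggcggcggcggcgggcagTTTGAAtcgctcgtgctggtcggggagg
Cdk1: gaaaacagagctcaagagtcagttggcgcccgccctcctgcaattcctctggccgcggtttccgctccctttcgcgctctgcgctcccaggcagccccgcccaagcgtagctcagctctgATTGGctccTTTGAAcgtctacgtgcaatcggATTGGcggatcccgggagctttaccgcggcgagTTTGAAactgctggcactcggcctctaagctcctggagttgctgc
Cenpa: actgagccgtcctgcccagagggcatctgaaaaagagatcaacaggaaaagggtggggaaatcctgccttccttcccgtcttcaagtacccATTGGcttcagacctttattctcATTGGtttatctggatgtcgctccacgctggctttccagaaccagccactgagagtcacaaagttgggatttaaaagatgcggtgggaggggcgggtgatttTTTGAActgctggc

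In these stretches Mki67 shows 2 CHR words in tandem, downstream of 3 CCAAT words, whereas Prc1 has 1 of each close to its start. Ube2c has 5 CCAAT words, of which a pair on opposite strands overlaps as CCAATTGG, and 1 CHR word. RefSeq promoter windows of 300 bases, from 250 before the start to 50 after it, were available for 36 of the 42 genes; Ccna2, Tpx2, Incenp, Kif20a, Smc4 and Aurkb had no entry. On either strand, TTTGAA stood in 29 of the 36 (80.6%), against 20.2% of 27025 genes with a window and 14.7% of the 9986 that were tested. It lay within 50 bases of the start in 25 of 36 (69.4%), against 5.72% of all genes. CCAAT stood in 29 of 36 (80.6%), against 41.1% of all genes, and both words in 26 of 36 (72.2%), against 7.97%. Among 55 further mitosis and cytokinesis genes with a window, 47.3% held TTTGAA and 60% CCAAT. Among the genes with a window, the median log2 fold change was -0.45 in the 29 genes with TTTGAA and -0.49 in the 7 without it. A match is a run of letters and not a measured binding site.

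**Figure D3:**
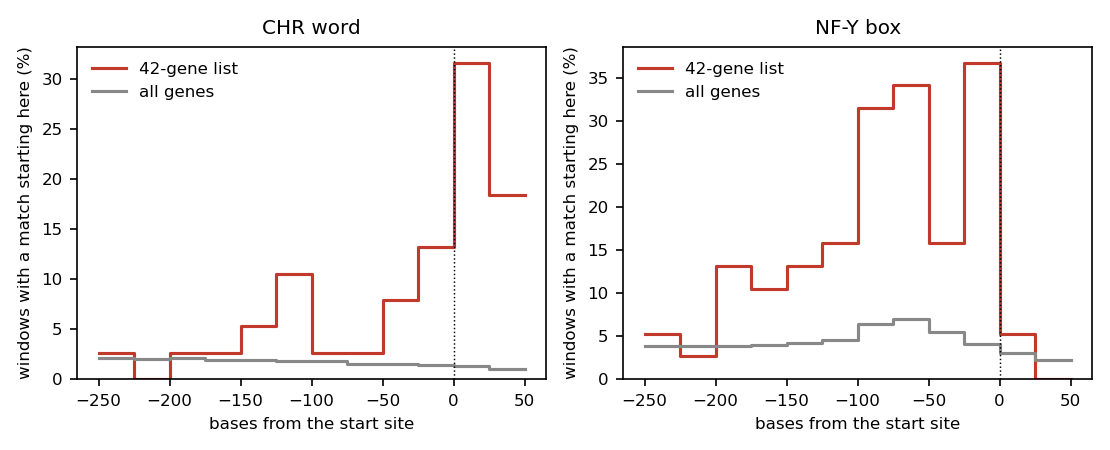
Share of promoter windows, in percent, with a match that starts in each bin of 25 bases, against distance from the annotated start in bases, for the CHR word (left) and the NF-Y box (right), both strands. The red line is the 42-gene list (38 windows of 36 genes) and the grey line all genes in the RefSeq table. In the list the CHR word is most frequent just after the start and the NF-Y box in the 100 bases before it, while the grey lines stay low throughout.

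The 7 kinases and cyclins of mitotic entry, none of which was called, summed to 24.9 ± 3.06 CPM in Sept2C111A cells and 31.0 ± 2.22 CPM in WT cells (SD, n = 4 each). Cdk1, the kinase that drives entry and the most abundant of them, had 8.51, 7.47, 8.75 and 7.71 CPM in Sept2C111A libraries and 8.30, 6.48, 8.63 and 8.78 CPM in WT libraries. The groups overlapped fully, and the lowest of the 8 values was WT library 2. Its log2 fold change of 0.01 had a 95% interval of -0.24 to 0.27 (edgeR adjusted p = 0.962). Its partners had other values. Ccnb1 and Ccnb2, the B-type cyclins that activate CDK1, had log2 fold changes of -0.57 (adjusted p = 0.149) and -0.39 (adjusted p = 0.238). Ccna2, the cyclin of S and G2, had -0.40 (adjusted p = 0.155). Aurka and Ccnb2 were among the genes in which all Sept2C111A libraries lay below all WT libraries, as was Cdca3, an F-box-like trigger of mitotic entry. Plk1, polo-like kinase, came nearest to a call (log2 fold change -0.56, SE 0.163, adjusted p = 0.0672); its levels, chosen after they were seen, were 3.36, 2.86, 2.44 and 2.27 CPM in Sept2C111A libraries and 4.05, 3.31, 4.39 and 4.34 CPM in WT libraries, so that Sept2C111A library 1 overlapped WT library 2. Pseudogenes of Ccnb1, Ccnb2 and, among the spindle motors, Kif4 are annotated; none of the 3 is listed in the tables, and how their reads were counted is not known.

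Besides Ube2c, the checkpoint group held Bub1, Bub1b and Cdc20, and summed to 11.6 ± 2.29 CPM in Sept2C111A cells and 16.6 ± 0.666 CPM in WT cells (SD, n = 4 each). Bub1 and Bub1b encode kinase-like checkpoint proteins that sit on unattached kinetochores, and Cdc20 encodes the activator of the anaphase-promoting complex that they restrain. Bub1b did not overlap between groups, at 2.27 to 2.76 CPM in Sept2C111A libraries and 2.77 to 3.39 CPM in WT libraries, but the gap was narrow and its adjusted p was 0.162 (log2 fold change -0.34). Cdc20 had 4.54, 2.01, 2.34 and 2.65 CPM in Sept2C111A libraries and 3.67, 4.20, 4.76 and 4.06 CPM in WT libraries, values picked after they were seen. Its Sept2C111A library 1 lay inside the WT range while the other 3 lay below it (log2 fold change -0.52, adjusted p = 0.184). For Bub1 the log2 fold change was -0.49 (adjusted p = 0.208).

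At the centromere and kinetochore, Cenpf was the only called gene of 6, and the group summed to 16.8 ± 1.46 CPM in Sept2C111A cells and 20.3 ± 1.95 CPM in WT cells (SD, n = 4 each). Cenpa, the histone H3 variant that marks centromeric chromatin, was the most abundant. It had 6.43, 8.06, 7.63 and 8.37 CPM in Sept2C111A libraries, against 6.44, 7.04, 7.12 and 9.16 CPM in WT libraries. In both groups library 1 was lowest and library 4 highest, and the ranges nearly coincided (log2 fold change 0.03, 95% interval -0.26 to 0.32, edgeR adjusted p = 0.904). Ndc80, Nuf2 and Spc25, of the microtubule-binding NDC80 complex, had log2 fold changes of -0.69, -0.55 and -0.50, with adjusted p of 0.144, 0.127 and 0.244. Cenpe, a kinetochore motor, had -0.13 (adjusted p = 0.670).

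The chromosomal passenger complex differed least in its summed level, which was 58.0 ± 4.52 CPM in Sept2C111A cells and 62.2 ± 3.24 CPM in WT cells (SD, n = 4 each). The complex puts Aurora B kinase on centromeres and later on the central spindle. Most of the sum was its scaffold, Incenp, at 47.5, 48.1, 50.8 and 43.3 CPM in Sept2C111A libraries and 53.9, 48.1, 47.5 and 47.3 CPM in WT libraries. The groups overlapped, and WT library 1 stood above the rest. Incenp had a log2 fold change of -0.05 with a 95% interval of -0.21 to 0.10 (edgeR adjusted p = 0.685). Birc5 (survivin) and Cdca8 (borealin), which target the complex, had -0.41 (adjusted p = 0.167) and -0.30 (adjusted p = 0.197), and Aurkb, the kinase, had -0.12 (adjusted p = 0.729).

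Spindle motors and microtubule-binding proteins summed to 20.0 ± 3.52 CPM in Sept2C111A cells and 26.1 ± 0.572 CPM in WT cells (SD, n = 4 each), and none of the 7 was called. Tpx2, which activates Aurora A and nucleates spindle microtubules, had 10.5, 7.63, 7.68 and 7.99 CPM in Sept2C111A libraries, against 10.8, 9.84, 9.67 and 11.1 CPM in WT libraries. Sept2C111A libraries 2 to 4 lay together below every WT library, and library 1 inside the WT range (log2 fold change -0.29, edgeR adjusted p = 0.159). Kif2c, a microtubule depolymerase, measured -0.80 on the log2 scale (SE 0.242, adjusted p = 0.0731), and Kif11, the motor that separates spindle poles, had -0.58 (adjusted p = 0.114). Aspm, a spindle pole protein, had -0.74 (adjusted p = 0.180) on 6 to 20 reads per Sept2C111A library and 20 to 31 per WT library. Hmmr, Kif4 and Nusap1 lay between -0.29 and -0.35.

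Chromosome condensation genes summed to 82.8 ± 11.2 CPM in Sept2C111A cells and 109 ± 2.82 CPM in WT cells (SD, n = 4 each). Mki67, the only called gene of the role, made up 28.9 CPM of the Sept2C111A sum and 48.4 CPM of the WT sum, and so most of the difference. Mki67 fell, as described, while Smc4, an ATPase arm shared by both condensins, had 34.6, 27.3, 27.8 and 32.0 CPM in Sept2C111A libraries and 28.9, 32.6, 27.6 and 27.2 CPM in WT libraries (values chosen after they were seen). The groups overlapped, with a log2 fold change of 0.07 and a 95% interval of -0.14 to 0.27 (edgeR adjusted p = 0.701). Its partner arm Smc2 had -0.34 (adjusted p = 0.189), and the condensin I subunits Ncapd2 and Ncapg had -0.45 (adjusted p = 0.0677) and -0.50 (adjusted p = 0.229). Top2a, the DNA topoisomerase that untangles sister chromatids, was also shown after its values were seen: it had 12.4, 7.74, 8.04 and 9.79 CPM in Sept2C111A libraries and 13.4, 12.4, 13 and 13.5 CPM in WT libraries. Sept2C111A library 1 all but touched the lowest WT library, and the adjusted p was 0.0700 (log2 fold change -0.46, SE 0.136).

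All 8 genes of the central spindle and cytokinesis had negative fold changes, and the group summed to 17.0 ± 4.09 CPM in Sept2C111A cells and 24.4 ± 1.58 CPM in WT cells (SD, n = 4 each). Besides Prc1, none was called. Racgap1, the GTPase-activating part of centralspindlin, had 5.77, 4.51, 3.56 and 3.93 CPM in Sept2C111A libraries, against 5.34, 5.41, 5.71 and 6.35 CPM in WT libraries. Sept2C111A library 1 lay inside the WT range and the other 3 below it (log2 fold change -0.36, edgeR adjusted p = 0.177). Kif23, the motor of centralspindlin, had -0.43 (adjusted p = 0.233), and Ect2, the exchange factor that it recruits to activate RhoA, had -0.39 (adjusted p = 0.264) without overlap between groups. Kif20a, a midzone motor, had -0.55 (adjusted p = 0.166), and Cit, citron kinase of the midbody, had -0.58 (adjusted p = 0.223). Kif14, the motor that brings citron kinase to the midbody, had the lowest estimate, -1.08, with a 95% interval of -2.14 to -0.01 (adjusted p = 0.196). It rests on 9, 1, 2 and 11 reads in Sept2C111A libraries and 11, 13, 14 and 13 in WT libraries, and Kif14 and Aspm were the 2 genes that met the filter level of 0.482 CPM in all 4 libraries of WT alone. Kif20b had -0.26 (adjusted p = 0.409).

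Levels per length order the transcripts differently from CPM. Per kilobase of annotated exons, Incenp was highest over the 8 libraries at 11.2 CPM, followed by Smc4 at 5.71 and Mki67 at 3.84, an order that held in both genotypes. Over the 8 libraries Ube2c, Tpx2 and Cdc20 came next. They had 1.79, 1.81 and 1.54 CPM per kilobase in Sept2C111A cells and 2.69, 2.21 and 2.23 in WT cells, so that their order differed between the groups. In Sept2C111A cells Cdk1, at 1.64 CPM per kilobase, also lay above Cdc20. Kif14, Cit, Aspm and Cenpf were lowest, at 0.0424, 0.0672, 0.0794 and 0.110 CPM per kilobase. Mki67, Incenp and Smc4 made up much of the summed level, at 107 ± 5.87 CPM in Sept2C111A cells and 127 ± 4.81 CPM in WT cells; the other 39 genes summed to 124 ± 18.4 CPM in Sept2C111A cells and 163 ± 6.73 CPM in WT cells (SD, n = 4 each), which is 76.3% of WT. Exons of 10 of the 42 genes overlap exons of a gene on the opposite strand, and reads there cannot be told apart. Besides Ube2c and Prc1, the overlap covered 29.3% of the exon bases of Kif20a, whose neighbour Cdc23 averaged 20.4 CPM. It covered 15.1% of those of Kif4 (Pdzd11, 34.6 CPM), 13.4% of Ncapg (Lcorl, 11.3 CPM) and 12.5% of Ccna2 (Exosc9, 26.6 CPM), and under 10% in Plk1, Cdca8, Nusap1 and Cdc20.

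The Sept2C111A libraries differed among themselves more than the WT libraries did. All 42 genes together summed to 264.7, 209.7, 219.5 and 230.7 CPM in Sept2C111A libraries 1 to 4, and 292.8, 284.6, 287.9 and 293.4 CPM in WT libraries 1 to 4. The sums did not overlap, and library 1 came closest to WT. The median gene stood at 89.6%, 60.3%, 67.2% and 75.7% of its WT mean in Sept2C111A libraries 1 to 4, and at 96% to 103% in WT libraries. Sept2C111A library 2 held the lowest of the 8 values for 22 genes and library 3 for 12, the same libraries that stood apart on the first principal component. Library 1 was the highest Sept2C111A library for 28 of the 42. The median coefficient of variation was 22.3% in Sept2C111A libraries and 10.1% in WT libraries, where read counting alone would give medians of 13.4% and 11.6%.

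**Figure D4:**
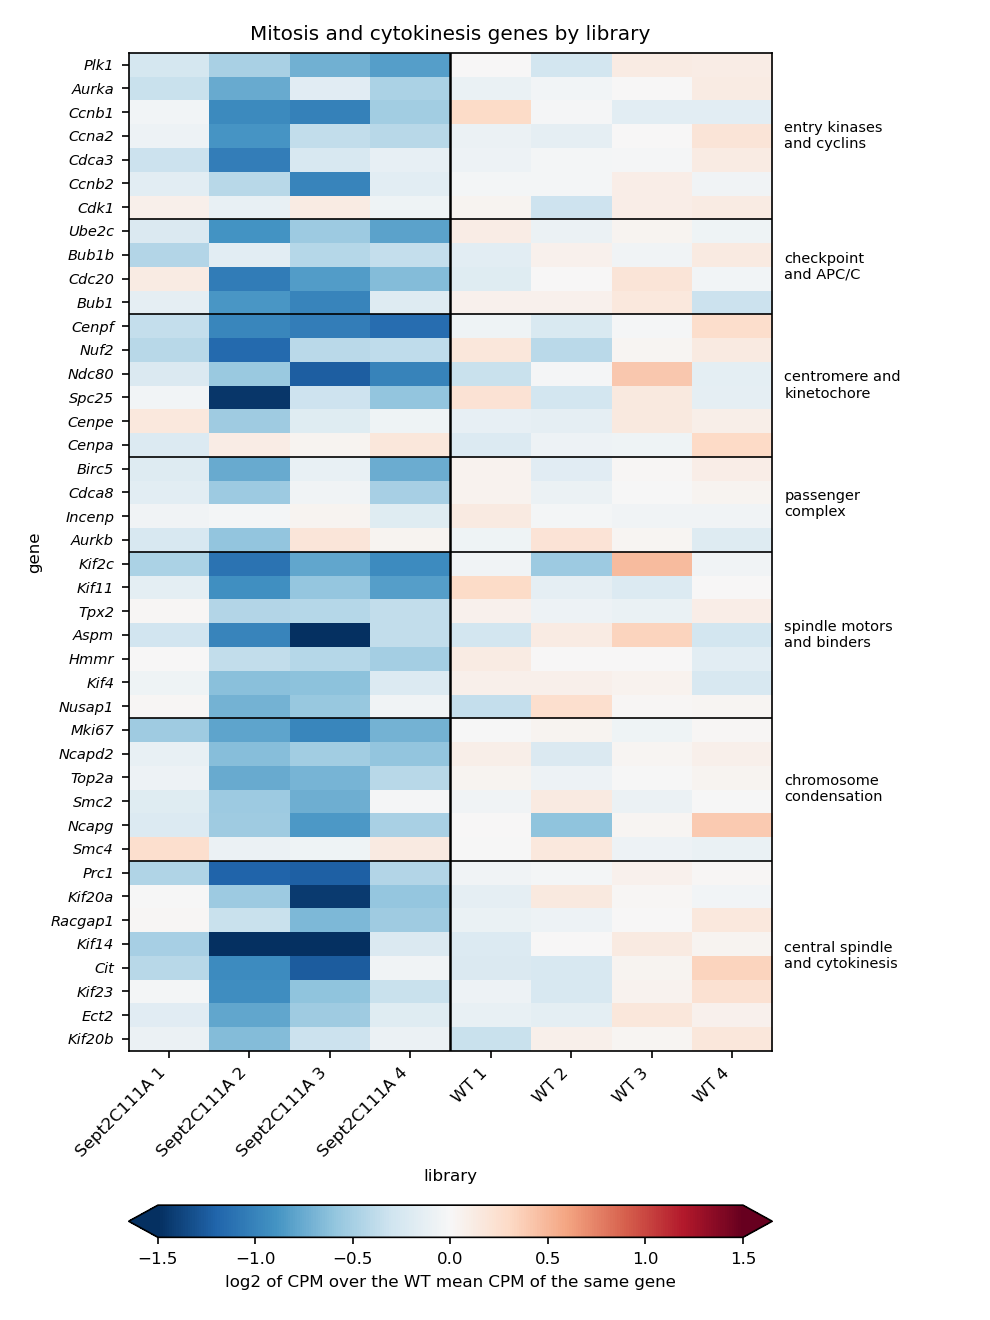
Level of each of the 42 genes (down the page, by role) in each library (across, Sept2C111A left of WT), coloured by the log2 of its CPM over the gene's WT mean. Blue is below the WT mean and red above it. Blue is deepest in Sept2C111A libraries 2 and 3 and palest in library 1, and Cdk1, Cenpa, Incenp and Smc4 stay pale across all 8.

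Other genes of the cell cycle were read from lists that do not contain the 42. Counts of calls in these lists stand against 3.43% higher and 3.03% lower over all tested genes. Of 63 further mitosis and cytokinesis genes, 61 were tested, 1 was higher and 3 were lower, with a median log2 fold change of -0.17. Ncapg2, a subunit of condensin II, rose to 21.6 ± 3.05 CPM in Sept2C111A cells, against 10.5 ± 1.2 CPM in WT cells (log2 fold change 1.04, SE 0.118, edgeR adjusted p = 7.79e-04), a call that held under all 16 alternatives. Espl1, separase, which cuts cohesin at anaphase, fell to 2.23 ± 0.327 CPM in Sept2C111A cells, against 4.00 ± 0.429 CPM in WT cells (log2 fold change -0.84, SE 0.155, adjusted p = 0.0112), and lost the call only without Sept2C111A libraries 2 and 3 together (adjusted p = 0.0567). Psrc1, a spindle microtubule protein, fell to 17.3 ± 0.452 CPM in Sept2C111A cells, against 21.9 ± 1.37 CPM in WT cells (log2 fold change -0.34, adjusted p = 0.0204). Its call was lost without Sept2C111A library 2 or WT library 1, 3 or 4 (adjusted p 0.0704 to 0.0821) and without Sept2C111A libraries 2 and 3 together (adjusted p = 0.0620). Psrc1 also lost it with a replicate block (adjusted p = 0.0539). Fam83d, a spindle protein and the remaining call, measured -1.26 in log2 fold change (edgeR adjusted p = 0.0290). Its levels were 0.615, 0.265, 0.509 and 0.426 CPM in Sept2C111A libraries and 1.00, 0.840, 1.32 and 1.24 CPM in WT libraries. Only WT met the filter level of 0.482 CPM in all 4 libraries. Fam83d thus entered the test through the group in which it is higher. The call was lost without Sept2C111A library 2 or WT library 1, 3 or 4 (adjusted p 0.0757 to 0.110). It was also lost without Sept2C111A libraries 2 and 3 together (adjusted p = 0.126) and with a replicate block (adjusted p = 0.0506).

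Among 20 tested regulators of these genes, 1 was higher and 1 lower, with a median of -0.02. E2f2, an activator E2F, averaged 3.55 ± 0.540 CPM in Sept2C111A cells and 2.13 ± 0.195 CPM in WT cells (log2 fold change 0.73, edgeR adjusted p = 0.0238). E2f8, a repressor E2F that peaks late in S phase, averaged 0.797 ± 0.172 CPM in Sept2C111A cells and 1.51 ± 0.123 CPM in WT cells (log2 fold change -0.91, adjusted p = 0.0298). Neither call was stable: E2f2 lost it without Sept2C111A library 2 or any 1 WT library (adjusted p 0.0553 to 0.0959), and E2f8 without Sept2C111A library 2 or 3 or any 1 WT library (adjusted p 0.0646 to 0.0999). Both also lost it without Sept2C111A libraries 2 and 3 together (adjusted p = 0.132 for E2f2 and 0.177 for E2f8). With a replicate block both lost it too (adjusted p = 0.0642 and 0.0816). Foxm1 and Mybl2 were named after their values were seen, because they encode the partners of MuvB given above. They had log2 fold changes of -0.51 (adjusted p = 0.0879) and -0.55 (adjusted p = 0.141), and their part in the result was not tested.

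Genes of G1 included 3 calls that held under all 16 alternatives. Cdkn1a, an inhibitor of cyclin-dependent kinases, was the most abundant of them and fell to 1203 ± 175 CPM in Sept2C111A cells, against 1819 ± 52.5 CPM in WT cells (log2 fold change -0.60, edgeR adjusted p = 0.00575). Cdkn2b, which inhibits CDK4 and CDK6, fell to 22.1 ± 2.84 CPM in Sept2C111A cells, against 33.0 ± 1.91 CPM in WT cells (log2 fold change -0.58, adjusted p = 0.00510). Ccnd2, a D-type cyclin that activates the same kinases, fell to 75.5 ± 10.8 CPM in Sept2C111A cells, against 113 ± 8.39 CPM in WT cells (log2 fold change -0.59, adjusted p = 0.00707). The 3 lower genes of G1 were therefore 2 inhibitors and an activating cyclin. The only higher gene of the 16 tested was Cdkn1b, another inhibitor, at 40.5 ± 4.93 CPM in Sept2C111A cells and 31.1 ± 2.37 CPM in WT cells (log2 fold change 0.38, adjusted p = 0.0383), which lost its call without Sept2C111A library 1, 2 or 3 or any 1 WT library (adjusted p 0.0515 to 0.133). Cdkn1b also lost it without Sept2C111A libraries 2 and 3 together (adjusted p = 0.176) and with a replicate block (adjusted p = 0.0977).

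The 26 genes of S-phase replication had a median log2 fold change of -0.02 and summed to 350 ± 22.6 CPM in Sept2C111A cells and 358 ± 13.5 CPM in WT cells (SD, n = 4 each). A single gene was called: Uhrf1, which reads hemimethylated DNA at replication forks, averaged 4.90 ± 0.527 CPM in Sept2C111A cells and 7.04 ± 0.383 CPM in WT cells (log2 fold change -0.52, edgeR adjusted p = 0.0215; lost without Sept2C111A library 2 or WT library 1, 2 or 3, adjusted p 0.0544 to 0.0855). Uhrf1 also lost the call without Sept2C111A libraries 2 and 3 together (adjusted p = 0.0887) and with a replicate block (adjusted p = 0.0504). Of 16 tested genes of the contractile ring and abscission, 1 was lower. That gene was Myl9, a myosin regulatory light chain of smooth muscle and non-muscle cells, at 42.7 ± 9.06 CPM in Sept2C111A cells and 64.9 ± 6.33 CPM in WT cells (log2 fold change -0.60, adjusted p = 0.0291; lost without WT library 1, 3 or 4, adjusted p 0.0768 to 0.104).

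Markers of other cells that a marrow culture could hold were summed beside these values. The 12 stromal markers, mainly collagens and smooth-muscle genes, summed to 4450 to 6119 CPM in Sept2C111A libraries and 6361 to 8065 CPM in WT libraries. Of the 11 tested, 4 were called lower (Acta2, Postn, Tagln and, named after its value was seen, Col1a1), against 3.03% of all tested genes. All 4 lost the call without WT library 1 or WT library 3. Without WT library 4, Postn, Tagln and Col1a1 lost it, and without Sept2C111A library 2, Postn and Col1a1. Col1a1 also lost it without Sept2C111A library 3 and without libraries 2 and 3 together (edgeR adjusted p = 0.169 for both left out). It lost it with a replicate block as well (edgeR adjusted p = 0.0555). With 1 library left out, the adjusted p of these lost calls ran from 0.0560 to 0.152. Sept2C111A libraries 2 and 3 had the lowest stromal sums, 4668 and 4450 CPM, and also the lowest sums of the 42 genes. The part of the stromal level in the result was not tested. Progenitor markers summed to 0.795 to 1.47 CPM in Sept2C111A libraries and 0.763 to 1.38 CPM in WT libraries. Most of the sum was Flt3 and Cd34, at means of 0.478 and 0.407 CPM over all libraries. Kit, Mpo, Elane and Prtn3 averaged 0.0059 to 0.0601 CPM. Myb averaged 0.0620 CPM in Sept2C111A cells and 0.189 CPM in WT cells. Neutrophil markers summed to 7.79 to 12.2 CPM in Sept2C111A libraries and 8.54 to 12.6 CPM in WT libraries, with overlapping ranges. Lymphoid markers summed to 0.424 to 0.709 CPM in Sept2C111A libraries and 0.280 to 0.802 CPM in WT libraries. Dendritic cell markers summed to 2.14 to 2.51 CPM in Sept2C111A libraries and 1.81 to 3.26 CPM in WT libraries. Those of mast cells and basophils summed to 2.54 to 8.89 CPM in Sept2C111A libraries and 4.34 to 9.10 CPM in WT libraries, so that all these ranges overlapped. Erythroid and megakaryocyte markers, nearly all of them Pf4, summed to 388 to 578 CPM in Sept2C111A libraries and 512 to 748 CPM in WT libraries. None of these last lists had a called gene.

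**Figure D5:**
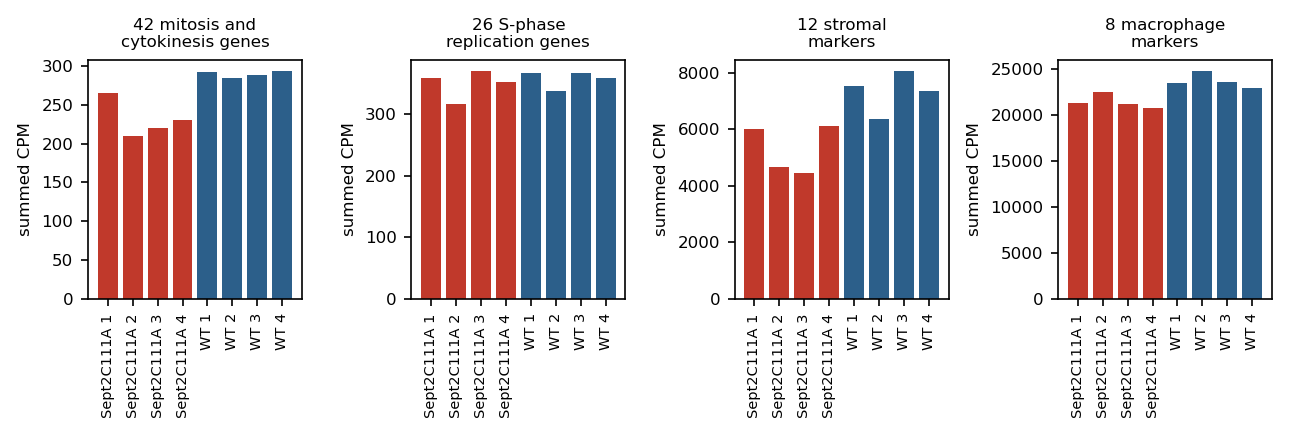
Summed CPM of 4 gene lists in each library, Sept2C111A (red) left of WT (blue), with y axes from 0. The 42 genes and the stromal markers are lowest in Sept2C111A libraries 2 and 3, while sums of the S-phase genes overlap between genotypes. Sums of the macrophage markers are lower in every Sept2C111A library than in every WT library.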

How the data were processed

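RNA of 8 libraries was enriched on oligo(dT) beads, per the labels' protocols. Per gene symbol and library, the authors deposited expected counts. Tools listed in the submitters' processing notes are DESeq2 1.4.5, RSEM 1.3.1 and Bowtie2, with the build mm10 and no role for each. Annotation, strand and gene filters were not given in the sources used here. Expected counts divide reads among similar genes, so that levels of close copies are uncertain.

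Counts were rounded and filtered with filterByExpr (minimum count 10), which left 12462 genes. They were scaled by TMM and tested for genotype, the sole covariate, by edgeR 4.0.16 (R 4.3.3) with its two-sided quasi-likelihood F test; p-values were adjusted by Benjamini-Hochberg over all tested genes. Positive log2 fold changes mean higher in Sept2C111A. The SE is the fold change over the square root of F. Scripts were tested on simulated data. No library was a copy of another. Alternatives were RLE and upper-quartile scaling, no filter, DESeq2 1.42.0, limma 3.58.1 voom with and without sample weights, a replicate block, a looser threshold, and libraries left out. Exon lengths and overlaps came from GENCODE on the same build.

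The 42 genes and the other lists were chosen with earlier results of these data known. All 42 could be named. Full values per library were given for called genes and the most abundant gene of each role. Up to 3 called genes with the smallest adjusted p were named per other list. Genes named beyond this are Fam83d, Cdkn1b, Col1a1, the uncalled markers and those said to be chosen after their values were seen. Marker genes Ctsg, Cd3e, Ncr1, Gata1, Cd209a, Ms4a2, Fcer1a and Prss34 were not analysed here.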

Additional observations from a re-analysis of the deposited data

Results flagged for a closer look

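In 5 of the 88 groups of 4 libraries examined, 1 library stood far from the other 3: its gap to the nearest of them, as a share of the group's range, exceeded Dixon's 95% critical value. Chance flags about 1 in 20 such groups. Sept2C111A library 1 was the high one for Cenpf, at 1.70 CPM (ratio 0.831), and for Tpx2, at 10.5 CPM (ratio 0.875), in both cases the Sept2C111A library nearest to WT. Sept2C111A library 2 was the low one for Nuf2, at 1.38 CPM (ratio 0.953). In WT, library 1 was high for Incenp, at 53.9 CPM (ratio 0.879), and library 4 was low for Kif4, at 1.38 CPM (ratio 0.918). Pdzd11 exons on the opposite strand overlap 15.1% of the exon bases of Kif4, and Pdzd11 averaged 34.6 CPM.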

How the results depend on the processing

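Mki67 was called lower in all 16 alternatives run. The count of 4 lower genes was the same under RLE and upper-quartile scaling, without the filter and with limma voom, and was 3 with sample weights, 7 with DESeq2, 8 at an adjusted p under 0.10, 1 without Sept2C111A libraries 2 and 3 together, and 1 to 13 over the libraries left out singly. Over all tested genes the share called lower was 3.03% in the main fit. It was 3.13% with RLE and 3.24% with upper-quartile scaling, 2.22% without the filter and 3.22% with limma voom. With sample weights it was 5.44%, and with DESeq2, which tested 41 of the 42, 5.94%. Over the libraries left out singly it ran from 0.827% to 7.81%. No such share is given for an adjusted p under 0.10. None of the 42 was called higher in any alternative. The medians ran from -0.56 to -0.24, with 38 to 41 genes negative. Deviations of same-numbered libraries correlated at -0.24 to 0.14, and 1 of 4 Sept2C111A libraries and 1 of 4 WT libraries lay nearest to its own number. No pairing by number was seen, but 4 libraries per group are too few to exclude a paired design. With a replicate block 2 genes were called, Mki67 and Ube2c, and 242 genes were higher and 252 lower in the whole table.

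Sept2 passed the threshold with DESeq2 (log2 fold change -0.26, adjusted p = 0.0203), with voom sample weights (-0.26, adjusted p = 0.0179), without Sept2C111A library 3 (-0.31, adjusted p = 0.0288) and without Sept2C111A libraries 2 and 3 together (-0.37, adjusted p = 0.0165), and ranged from -0.31 to -0.20 with single libraries left out. Signs near 0 changed: with voom sample weights Cdk1 was at -0.0217 and Cenpa at -0.0273, and without Sept2C111A libraries 2 and 3 Cenpa was at -0.0071 and Cenpe at 0.0493. With single libraries left out Cdk1 ran from -0.0732 to 0.0611, Cenpa from -0.0254 to 0.154 and Aurkb from -0.234 to 0.0073. The cause was not tested. Depth limits the rarer genes: the median gene had 56 reads per Sept2C111A library and 75.2 per WT library.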
